A study of Mus musculus with 14 samples.

Results

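Expression of 9 genes of a nuclear receptor and coactivator network was examined in skeletal muscle of mice with endothelial c-Myc overexpression (EC-Myc OE) and control (CT) littermates. The genes were the orphan receptors Nr4a1, Nr4a2 and Nr4a3, the coactivators Ppargc1a and Ppargc1b, their muscle partner Perm1, and the estrogen-related receptors Esrra, Esrrb and Esrrg, taken by gene symbol with earlier results of these data known. They were 9 of 54532 genes in the count table, and all 9 were among the 15458 genes left by a filter on low counts. RNA was sequenced from 14 muscle libraries of male FVB/N mice, 3 of CT on control diet (CT-CTD), 3 of CT on western diet (CT-WD), 4 (OE-CTD) of EC-Myc OE on control diet and 4 of EC-Myc OE on western diet (OE-WD).

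By the labels the diets were given for 20 weeks. Another duration is also given for the transcriptome in the description of the study. In EC-Myc OE a human MYC transgene under a tet operator was driven by a tetracycline transactivator under the endothelial Cdh5 promoter and was switched on by withdrawal of doxycycline between 4 and 6 weeks of age. Both genotypes, which were littermates, held the tet-operator transgene, and only EC-Myc OE held the transactivator. The transgene lay on the Y chromosome, and all mice were male. By the study's methods the tissue was soleus and gastrocnemius, and the labels do not say which of these muscles a library held. Group sizes and other details described for the study do not match the labels, in a way that would be removed if the names CT-WD and OE-CTD were exchanged, and which assignment is right was not determined here. Among these details, Zbtb16 is described as higher in EC-Myc OE than in CT on western diet. As labelled, Zbtb16 rose in OE-WD against OE-CTD (log2 fold change 1.23, adjusted p = 0.00559) and fell for genotype averaged over diets. In labelled OE-WD against CT-WD, the comparison described, Zbtb16 was not called by edgeR, with the limits given below. With the exchange, labelled OE-WD against OE-CTD would be the comparison described. For Zbtb16 the description therefore goes with the exchanged names and not with the labels. Foxo1 is described as lower in EC-Myc OE muscle, in a passage on genes altered by western diet in that genotype. As labelled, Foxo1 was at 0.51 for diet averaged over genotypes and at -0.63 for genotype averaged over diets. In labelled OE-WD against CT-WD, which the exchange would make the diets in EC-Myc OE, Foxo1 was at -1.02 (adjusted p = 0.0694). Every comparison below is of groups as labelled, and with the exchange the comparison of diets in CT and that of genotypes on control diet would change places, as would those of diets in EC-Myc OE and of genotypes on western diet.

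Nr4a receptors are transcription factors without a known natural ligand whose genes are switched on within minutes to hours by exercise, adrenergic stimulation and other inputs that raise cAMP or calcium. Ppargc1a and Ppargc1b encode PGC-1 coactivators, which bind nuclear receptors and raise transcription of genes for mitochondria and fuel oxidation in muscle. The estrogen-related receptors are among the main DNA-binding partners of PGC-1 coactivators, and Perm1 is induced by both and acts in the same oxidative program.

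Library totals ranged from 24101226 to 25054855 counts in CT-CTD (median 24807368), 21833839 to 26518734 in CT-WD (median 23814408), 22083340 to 28519159 in OE-CTD (median 24226483) and 22033140 to 27698046 in OE-WD (median 26198262). Levels are given as CPM, counts relative to the library total after TMM normalization, and as FPKM, the authors' values per gene length. Differences are log2 fold changes with standard error (SE) from edgeR's quasi-likelihood test with Benjamini-Hochberg adjustment, and a gene was called at an adjusted p under 0.05 with a fold over 1.5. The biological coefficient of variation was 17.0%. All 7 muscle fibre markers were over 1 CPM, led by Acta1 at 42921 CPM, and their sum was between 70412 CPM in OE-WD 3 and 98576 CPM in OE-CTD 4. Of 3 heart markers, Nppa and Nppb had a mean of 3 counts or fewer, and Myh6 had 194 CPM.

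On the FPKM scale, which allows levels of different genes to be compared, Perm1 was highest with a mean of 114 (SD 14.1, n = 14), above 97.7% of the genes tested. It was followed by Nr4a1 at 75.9 (SD 22.3), Esrra at 63.6 (SD 6.61), Ppargc1a at 18.5 (SD 6.84), Esrrg at 6.37 (SD 1.19), Esrrb at 3.65 (SD 0.944), Nr4a3 at 3.29 (SD 1.95), Ppargc1b at 1.94 (SD 0.648) and Nr4a2 at 1.01 FPKM (SD 0.660), the last above 32.2% of the genes tested. Ranges over libraries did not overlap between Esrra (lowest 54.3 FPKM) and Ppargc1a (highest 32.3 FPKM), or between Ppargc1a (lowest 10.7 FPKM) and Esrrg (highest 8.45 FPKM). Ranges of all other neighbours in this order overlapped. Library by library, Esrrg was above Esrrb in 14 of 14, Perm1 above Nr4a1 in 13, Nr4a1 above Esrra in 11, and Esrrb above Nr4a3, Nr4a3 above Ppargc1b and Ppargc1b above Nr4a2 in 12 each.

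**Figure D1:**
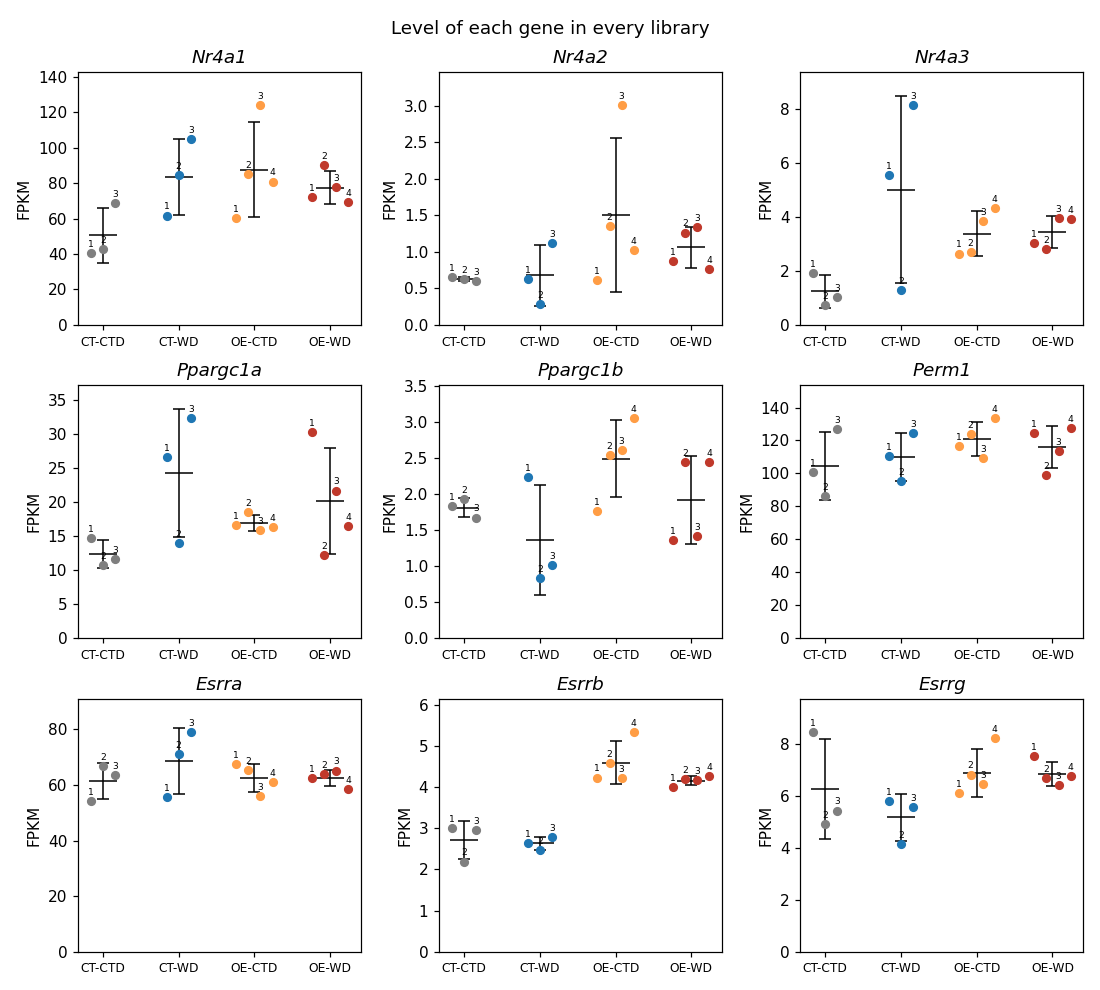
FPKM of each of the 9 genes (vertical axes) in every library of the 4 groups (horizontal axes), with points for libraries and the dash and bars for the mean and SD of 3 or 4 libraries. Esrrb lay between 2.19 and 3.0 FPKM in the 6 CT libraries and between 4.00 and 5.34 FPKM in the 8 EC-Myc OE libraries, while the other genes overlapped between the genotypes.

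Nr4a1 (ENSMUSG00000023034, chromosome 15 of GRCm38, 101254269 to 101274795, plus strand), a receptor that raises expression of glucose-use genes in muscle, was at 131, 136 and 221 CPM for CT-CTD 1 to 3 and at 200.3, 270.2 and 335 CPM for CT-WD 1 to 3. It was at 194, 274, 401 and 256 CPM for OE-CTD 1 to 4 and at 232, 291, 250.4 and 219 CPM for OE-WD 1 to 4. CT-CTD 1 and 2 were the lowest of the 14 libraries and OE-CTD 3 the highest, and every pair of groups overlapped, since CT-CTD 3 lay within the other groups. The log2 fold change was 0.72 (SE 0.248, adjusted p = 0.561) in CT-WD against CT-CTD and 0.79 (SE 0.235, adjusted p = 0.0938) in OE-CTD against CT-CTD, neither of them called by edgeR with the filter and without a replicate block, while DESeq2 called the latter (adjusted p = 0.0163). DESeq2 called 509 of 15458 genes in that comparison. In OE-WD against OE-CTD the log2 fold change of Nr4a1 was -0.18 (SE 0.213), and in OE-WD against CT-WD -0.11 (SE 0.230).

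Nr4a2 (ENSMUSG00000026826, chromosome 2, 57106830 to 57124003, minus strand), best known for its role in dopamine neurons, was the lowest of the 9 genes, with 22 to 273 counts per library. Its level was 2.45, 2.30 and 2.26 CPM for CT-CTD 1 to 3 and 2.35, 1.06 and 4.13 CPM for CT-WD 1 to 3. In EC-Myc OE it was 2.30, 5.08, 11.3 and 3.73 CPM for OE-CTD 1 to 4 and 3.27, 4.70, 4.98 and 2.81 CPM for OE-WD 1 to 4. OE-CTD 3 stood highest and CT-WD 2 lowest, and OE-CTD 1 lay at the level of CT-CTD. In OE-CTD against CT-CTD the log2 fold change of Nr4a2 was 1.26 (SE 0.469, adjusted p = 0.192), and for genotype averaged over diets it was 0.95 (SE 0.331, adjusted p = 0.0908). The latter was not called by edgeR with the filter, all libraries and no replicate block and was called by DESeq2 (adjusted p = 0.0270), by edgeR without OE-CTD 1 (1.08, adjusted p = 0.0456, with 481 of 15385 genes called) and by edgeR without the filter on low counts (adjusted p = 0.00850). DESeq2 and the fit without the filter called 728 of 15458 and 760 of 27899 genes for genotype averaged over diets. Without OE-CTD 3, the highest library, the 2 values of Nr4a2 were 0.66 (adjusted p = 0.517) and 0.65, neither of them called.

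Nr4a3 (ENSMUSG00000028341, chromosome 4, 48045153 to 48086447, plus strand), the family member most strongly induced by exercise in muscle, was at 10.6, 4.06 and 5.76 CPM for CT-CTD 1 to 3 and at 30.8, 7.05 and 44.6 CPM for CT-WD 1 to 3. It was at 14.6, 15.0, 21.2 and 23.3 CPM for OE-CTD 1 to 4 and at 16.6, 15.5, 21.8 and 21.2 CPM for OE-WD 1 to 4. CT-WD 1 and 3 were the highest of all libraries while CT-WD 2 lay within CT-CTD, and all 4 OE-CTD libraries were above all 3 CT-CTD libraries. The coefficient of variation over libraries was 69.1% in CT-WD and 50.1% in CT-CTD, against 23.8% in OE-CTD and 17.0% in OE-WD. Mouse Myc, which is not the transgene, was likewise higher in CT-WD 1 and 3 (8.71 and 13.3 CPM) than in CT-WD 2 (4.93 CPM), and was between 3.06 and 9.03 CPM in the other 11 libraries.

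In CT-WD against CT-CTD the log2 fold change of Nr4a3 was 2.01 (SE 0.472, 95% interval 1.01 to 3.02), with an adjusted p of 0.381 that was not called. Without CT-WD 2 it was 2.46 and was called (adjusted p = 0.0214), the only one of 15893 genes. In the other 13 fits without 1 library it was not called, with 1.48 without CT-WD 3 and an adjusted p of up to 0.967 (without CT-CTD 2). In OE-CTD against CT-CTD it was 1.43 (SE 0.449, adjusted p = 0.112), which was called without CT-WD 2 (adjusted p = 0.0156, with 332 of 15893 genes called), a library of neither group, and in none of the other 13 fits. Nr4a3 was also called there with only the groups compared in the fit (adjusted p = 0.0202, with 437 of 14758 genes called). Both comparisons used the same CT-CTD libraries. In OE-WD against OE-CTD the difference was 0.02 (SE 0.388) and in OE-WD against CT-WD -0.55 (SE 0.413), the latter at -1.01 when CT-WD 2 was left out, at -0.028 when CT-WD 3 was, and called in none of the 14 fits without 1 library. The diet by genotype interaction was -1.99 (SE 0.607, adjusted p = 0.825), not called with the filter and called without it (adjusted p = 0.0258). Diet averaged over genotypes was 1.02 (SE 0.304, adjusted p = 0.586), not called with the filter and called without it (adjusted p = 0.00923). Without the filter on low counts edgeR also called Nr4a3 in CT-WD against CT-CTD (adjusted p = 0.000292) and Nr4a1, Nr4a2 and Nr4a3 in OE-CTD against CT-CTD (adjusted p = 0.00270, 0.0271 and 0.00164). In these 2 comparisons that fit called 88 and 570 of 27899 genes. It called 29 in the interaction and 47 for diet averaged over genotypes.

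Ppargc1a (ENSMUSG00000029167, chromosome 5, 51454250 to 51567726, minus strand), the exercise-induced PGC-1 coactivator, was at 89.7, 64.2 and 70.8 CPM for CT-CTD 1 to 3 and at 162, 84.1 and 194 CPM for CT-WD 1 to 3. It was at 101, 113, 96.7 and 97.4 CPM for OE-CTD 1 to 4 and at 184, 73.6, 131 and 97.5 CPM for OE-WD 1 to 4. CT-WD 1 and 3 and OE-WD 1 were highest, CT-WD 2 lay within CT-CTD, and all OE-CTD libraries were above all CT-CTD libraries. The log2 fold change was 0.97 (SE 0.294, adjusted p = 0.507) in CT-WD against CT-CTD, 0.25 (SE 0.252) in OE-WD against OE-CTD, and 0.61 (SE 0.193, adjusted p = 0.604) for diet averaged over genotypes, and none of these was called. Without the filter on low counts the first and the third were called for Ppargc1a (adjusted p = 0.00896 and 0.0218), among 88 and 47 of 27899 genes. In OE-CTD against CT-CTD it was 0.44 (SE 0.275, adjusted p = 0.476). The value in OE-WD against OE-CTD turned to -0.016 when OE-WD 1 was left out.

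Ppargc1b (ENSMUSG00000033871, chromosome 18, 61298136 to 61400431, minus strand), the related coactivator, was at 6.72, 7.03 and 6.15 CPM for CT-CTD 1 to 3 and at 8.24, 3.04 and 3.69 CPM for CT-WD 1 to 3. It was at 6.48, 9.34, 9.61 and 11.0 CPM for OE-CTD 1 to 4 and at 4.98, 8.94, 5.19 and 8.80 CPM for OE-WD 1 to 4. CT-WD 2 and 3 were the lowest libraries, CT-WD 1 lay above CT-CTD, and all pairs of groups overlapped. No comparison was called by edgeR or DESeq2 with all libraries, and the log2 fold change in OE-WD against CT-WD was 0.47 (SE 0.305, adjusted p = 0.469). Without CT-WD 1 this difference of Ppargc1b was 1.05 and was called (adjusted p = 0.0291), as was genotype averaged over diets, at 0.75 (adjusted p = 0.00998) against 0.46 with all libraries. In that fit 905 and 1111 of 15828 genes were called in these 2 comparisons. Without CT-WD 2 the values of Ppargc1b were 0.22 (adjusted p = 0.843) and 0.34 (adjusted p = 0.402), and neither was called in any of the other 13 fits. CT-WD 1 stood apart from CT-WD 2 and 3 in tendon markers (308 against 37.1 and 35.3 CPM, with all OE-WD libraries at 172 CPM or more), macrophage markers (93.8 against 45.0 and 38.9 CPM) and epidermis markers (66.1 against 7.68 and 7.82 CPM), and their part in this difference was not tested.

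Perm1 (ENSMUSG00000078486, chromosome 4, 156215868 to 156221307, plus strand), a regulator of muscle gene expression downstream of PGC-1 coactivators and estrogen-related receptors, was between 306 and 455 CPM in CT-CTD, 339 and 443 CPM in CT-WD, 393 and 469 CPM in OE-CTD and 354 and 447 CPM in OE-WD. All groups overlapped, and its log2 fold changes in the comparisons of 2 groups were between -0.06 and 0.20, none of them called.

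Esrra (ENSMUSG00000024955, chromosome 19, 6910977 to 6921813, minus strand), the estrogen-related receptor most tied to mitochondrial genes, was between 127 and 154 CPM in CT-CTD, 130.4 and 183 CPM in CT-WD, 131 and 158 CPM in OE-CTD and 133 and 152 CPM in OE-WD. The 2 highest libraries were CT-WD 2 and 3, all groups overlapped, and the log2 fold changes between 2 groups were from -0.14 to 0.15, none of them called. Esrra overlaps Trmt112 on the opposite strand, which had a mean of 15.7 CPM. The strand setting of the counting was not given in the sources used here, so reads of this overlap cannot be told apart by gene.

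Esrrb (ENSMUSG00000021255, chromosome 12, 86361117 to 86521628, plus strand), a receptor known from stem cells that is also expressed in oxidative muscle, separated the genotypes, as labelled, on both diets. Its level was 16.7, 12 and 16.5 CPM for CT-CTD 1 to 3 and 14.8, 13.6 and 15.4 CPM for CT-WD 1 to 3. In EC-Myc OE it was 23.5, 25.5, 23.5 and 29.1 CPM for OE-CTD 1 to 4 and 22.2, 23.2, 23.1 and 23.2 CPM for OE-WD 1 to 4. Every EC-Myc OE library was above every CT library, on the CPM and the FPKM scale. Over the 6 CT libraries the lowest, median and highest were 12, 15.1 and 16.7 CPM, and over the 8 EC-Myc OE libraries they were 22.2, 23.3 and 29.1 CPM. Since whole muscle was sequenced, more or fewer cells of a type and more or less RNA per cell cannot be told apart.

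Esrrb rose in OE-CTD against CT-CTD by a log2 fold change of 0.75 (SE 0.116, adjusted p = 0.00605, higher in 4 of 4 libraries) and for genotype averaged over diets by 0.70 (SE 0.0818, 95% interval 0.53 to 0.87, adjusted p = 0.000374). Both calls held in each of the 14 fits without 1 library, and the second was lost with limma on log2(FPKM + 1), at 0.55 (adjusted p = 0.00210), short of the fold limit. In OE-WD against CT-WD Esrrb rose by 0.65 (SE 0.116, adjusted p = 0.0282, higher in 4 of 4 libraries). This call was lost without CT-WD 2 (adjusted p = 0.0973), CT-WD 3 (0.111), OE-WD 2 (0.0883), OE-WD 3 (0.0753) or OE-WD 4 (0.0683), while the log2 fold change stayed between 0.60 and 0.69. It was also lost with limma on log2(FPKM + 1), at 0.50 (adjusted p = 0.0600), short of the fold limit too, and on log2(FPKM + 0.1), at 0.64 (adjusted p = 0.0587), and in edgeR with only the groups compared, at 0.65 (adjusted p = 0.0684). Diet made no called difference to Esrrb, with -0.05 (SE 0.124) in CT and -0.15 (SE 0.104) in EC-Myc OE, and the interaction was -0.10 (SE 0.162, adjusted p = 0.960). Under the exchange of group names described above, the separation of Esrrb would lie between the diets and not between the genotypes. The sample descriptions hold numbers of unknown meaning, 1 shared by OE-CTD 1 to 3 and another by OE-WD 1 to 4. None is in both genotypes as labelled, so their part in the Esrrb difference cannot be told apart.

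Markers of other cell types are given beside Esrrb. The 9 endothelial markers, all detected in every library and led by Cdh5, summed to 399, 394 and 418 CPM for CT-CTD 1 to 3 and 478, 423 and 453 CPM for CT-WD 1 to 3. They summed to 493, 504, 474 and 451 CPM for OE-CTD 1 to 4 and 513, 501, 520 and 502 CPM for OE-WD 1 to 4, so that all CT-CTD libraries were lowest, with CT-WD 1 and 3 above OE-CTD 4. The 3 tendon markers, all detected in every library and led by Fmod, summed to 135, 43.8 and 87.1 CPM for CT-CTD 1 to 3, 308, 37.1 and 35.3 CPM for CT-WD 1 to 3, 236, 364, 286 and 177 CPM for OE-CTD 1 to 4 and 229, 506, 335 and 172 CPM for OE-WD 1 to 4. The part of these cell types in the Esrrb difference was not tested.

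Within 1 Mb of Esrrb, 26 other genes were tested, and their median log2 fold change for genotype averaged over diets was 0.02. Of these 26, 1 was called (all genes 3.64%), Flvcr2 at 1.06 (SE 0.260, adjusted p = 0.0213), and the neighbour Vash1 was at 0.68 (SE 0.212, adjusted p = 0.0588). Flvcr2 was named after its value was seen.

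Esrrg (ENSMUSG00000026610, chromosome 1, 187608791 to 188214885, plus strand), a receptor of oxidative fibres, was at 48.3, 27.7 and 31.0 CPM for CT-CTD 1 to 3 and at 33.3, 23.3 and 31.5 CPM for CT-WD 1 to 3. It was at 34.8, 38.9, 36.7 and 45.9 CPM for OE-CTD 1 to 4 and at 42.8, 37.9, 36.6 and 37.7 CPM for OE-WD 1 to 4. All OE-WD libraries were above all CT-WD libraries, and CT-CTD 1 was the highest of the 14 libraries although the other CT libraries were the lowest. The log2 fold change of Esrrg was 0.40 (SE 0.169, adjusted p = 0.251) in OE-WD against CT-WD and 0.13 (SE 0.167, adjusted p = 0.773) in OE-CTD against CT-CTD, neither of them called. The latter was 0.41 without CT-CTD 1 and -0.022 without CT-CTD 2, and was called in none of the 14 fits without 1 library. The 3 brown adipocyte markers, led by Cidea, summed to 29.9 CPM in CT-CTD 1 and to 3.26 and 3.34 CPM in CT-CTD 2 and 3. They summed to 3.25, 2.27 and 4.53 CPM for CT-WD 1 to 3, 4.72, 5.77, 5.48 and 4.95 CPM for OE-CTD 1 to 4 and 7.47, 6.56, 5.36 and 4.06 CPM for OE-WD 1 to 4. Cidea and Dio2 were detected in each library, while Ucp1 had 490 counts in CT-CTD 1, 73 in OE-WD 1, 3 in each of CT-CTD 2, OE-CTD 1 and OE-CTD 3 and 0 in the other 9 libraries. Dio2 went the other way, at 0.830 CPM in CT-CTD 1, its lowest library, and 1.30 to 4.59 CPM in the others. The 7 adipocyte markers also summed highest in CT-CTD 1, at 510 CPM, followed by 383 CPM in CT-WD 1. The part of adipocytes, brown or other, in the level of Esrrg was not tested.

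**Figure D2:**
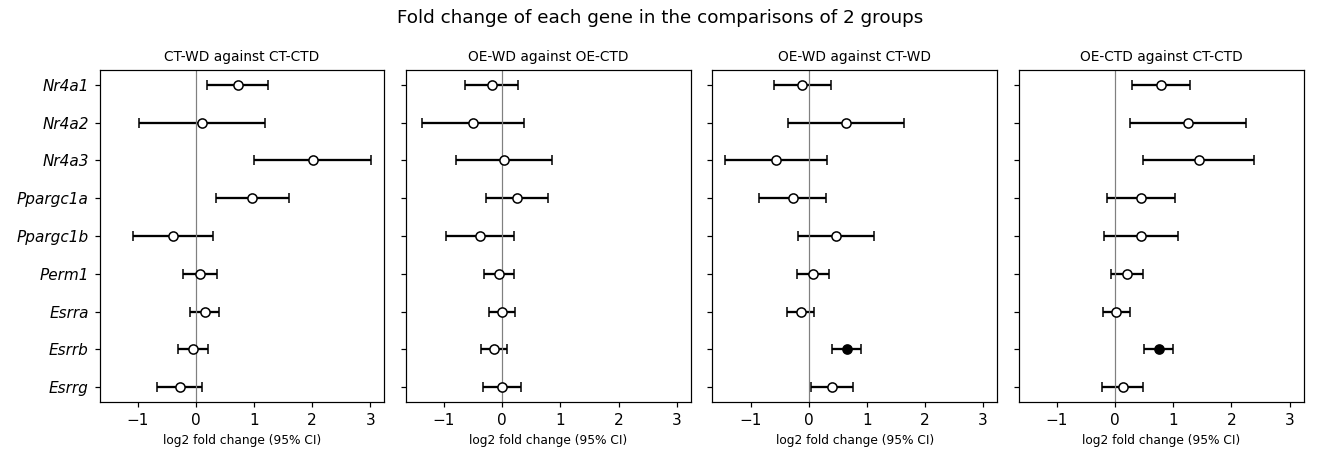
Log2 fold change of each gene (horizontal axes) with its 95% interval in the 4 comparisons of 2 groups, with filled circles for called and open circles for not called genes. Esrrb was called in both comparisons of genotypes, at 0.65 and 0.75, and the other 8 genes were called in none.

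Counted over the 9 genes, 0 were called in CT-WD against CT-CTD by edgeR, against 0% of all genes tested, and 0 by DESeq2 and limma, while 3 (Nr4a1, Nr4a3 and Ppargc1a) passed an unadjusted p under 0.05 with a fold over 1.5, against 3.05% of all genes. None of the 9 had groups without overlap in that comparison, against 9.63% of all genes. Replicate numbers were taken to pair these libraries, and other matchings were not tried. By this matching Nr4a1, Nr4a3, Ppargc1a and Esrra were higher in CT-WD in 3 of 3 pairs, against 14.3% of all genes. None of the 9 was called in this comparison under the replicate block. Without CT-WD 2, 1 of the 9 was called there, Nr4a3, and 1 of all 15893 genes. In OE-WD against OE-CTD, 0 were called by edgeR (all genes 0.00647%), 0 by DESeq2 and limma and 0 at the unadjusted level (all genes 1.37%). Only Esrrb had groups without overlap in CPM there (all genes 4.08%), and its groups overlapped in FPKM.

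In OE-WD against CT-WD, 1 of the 9 genes was called (all genes 0.563%) and 1 at the unadjusted level (all genes 5.74%), Esrrb in both. Groups did not overlap for 2 of the 9, Esrrb and Esrrg (all genes 11.6%). Without CT-WD 1 the called genes were 2, Ppargc1b and Esrrb, among 905 of 15828 genes, and without CT-WD 2, CT-WD 3, OE-WD 2, OE-WD 3 or OE-WD 4 they were 0, among 4 to 13 of all genes tested. In OE-CTD against CT-CTD, 1 of the 9 was called, Esrrb (all genes 1.91%), and 4 at the unadjusted level, the 3 Nr4a genes and Esrrb (all genes 7.12%). Groups did not overlap there for 3 of the 9, Nr4a3, Ppargc1a and Esrrb (all genes 15.5%). Without CT-WD 2 the called genes were 2, Nr4a3 and Esrrb, among 332 of 15893 genes.

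The interaction called 0 of the 9 genes by edgeR (all genes 0%) and 0 by DESeq2 and limma, and 2 at the unadjusted level, Nr4a1 and Nr4a3 (all genes 2.7%). Diet averaged over genotypes called 0 by edgeR (all genes 0.00647%) and 0 by DESeq2 and limma, and 2 at the unadjusted level, Nr4a3 and Ppargc1a (all genes 1.6%). Genotype averaged over diets called 1, Esrrb (all genes 3.64%), and 2 at the unadjusted level, Nr4a2 and Esrrb (all genes 7.18%). Without CT-WD 1 it called 2, Ppargc1b and Esrrb, among 1111 of 15828 genes, and without OE-CTD 1 it called 2, Nr4a2 and Esrrb, among 481 of 15385 genes. All 8 EC-Myc OE libraries lay apart from all 6 CT libraries for 1 of the 9 genes, Esrrb (all genes 1.83%).

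Of 8 pairs of the 9 genes correlated over the 14 libraries in log2 CPM, 2 passed an adjusted p of 0.05. Ppargc1a was higher where Nr4a3 was higher (r = 0.769, permutation p = 0.00165, adjusted p = 0.0132, rho = 0.741, permutation p = 0.00353, adjusted p = 0.0282). Without CT-CTD 2 and CT-WD 3, the libraries farthest from the median of Nr4a3, r was 0.604 (adjusted p = 0.147), and r of the deviations from the group means was 0.652 (adjusted p = 0.136), so the relation no longer passed in either case. Esrra was lower where Ppargc1b was higher (r = -0.671, permutation p = 0.00889, adjusted p = 0.0356), although rho was -0.508 (permutation p = 0.0682, adjusted p = 0.136). Without CT-WD 2 and CT-WD 3, r of Ppargc1b and Esrra was -0.350 (adjusted p = 0.379), and r of the deviations from the group means was -0.678 (adjusted p = 0.136), so this relation no longer passed in either case. The 8 pairs were named without Esrrb and Esrrg. Among the 28 pairs not tested the r farthest from 0 was that of Esrrb with Esrrg (0.691, within groups 0.700), given as a description. The other 6 tested pairs had adjusted p from 0.0752 for Nr4a1 with Nr4a2 to 0.938 for Perm1 with Esrra in permutation tests of r.

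**Figure D3:**
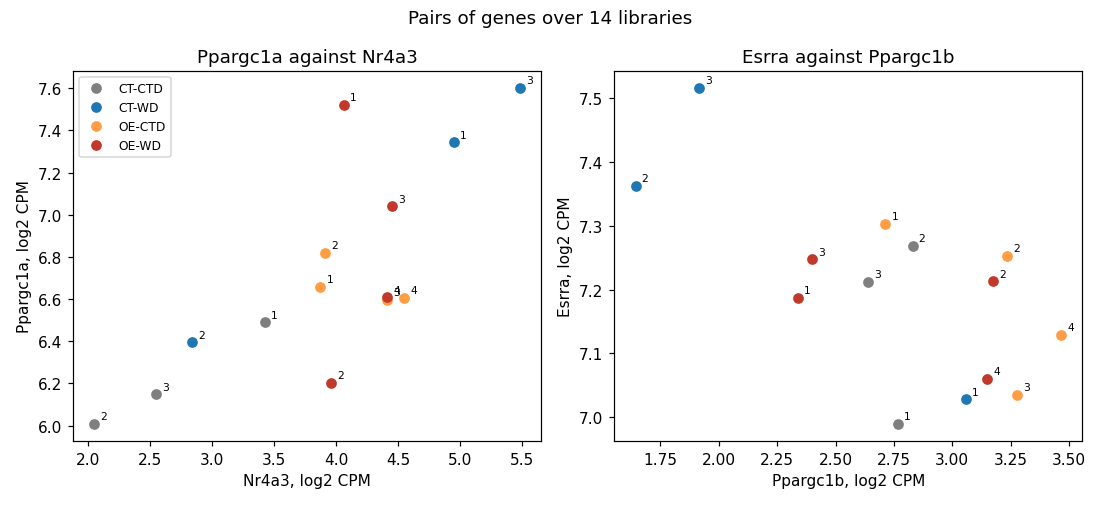
Log2 CPM of Ppargc1a against Nr4a3 and of Esrra against Ppargc1b, with a point for each of the 14 libraries, coloured by group and numbered by replicate. CT-WD 3 is the highest point for Nr4a3 and Ppargc1a, and CT-WD 2 and 3 lie apart at low Ppargc1b and high Esrra.

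Among all genes with a mean of at least 1 CPM, those most like each of the 9 by Pearson correlation of log2 CPM over the 14 libraries were as follows, as a description. For Nr4a1 they were Unc45a (0.884), Ednrb (0.830) and Rcc2 (0.826), for Nr4a2 Bcar3 (0.905), Actr3 (0.899) and Swap70 (0.878), and for Nr4a3 Ankrd33b (0.933), Gfod1 (0.904) and Ly6a (0.882). Ankrd33b was also near Ppargc1a (0.836), after Nuak1 (0.867) and Mbnl2 (0.847). For Ppargc1b they were Itga6 (0.912), Vash1 (0.903) and Asb18 (0.903), and for Perm1 Tiam2 (0.866), Atp6v1h (0.854) and Dusp18 (0.852). For Esrra they were Dazap1 (0.905), Nap1l4 (0.900) and Klc1 (0.896), and for Esrrg Asah1 (0.877), Agtrap (0.870) and Cidea (0.857). The gene most like Esrrb was Atp2a2 (0.95), the calcium pump of slow and cardiac muscle, followed by Atp1b1 (0.923), a sodium pump subunit. Within groups the correlation with Esrrb was 0.859 for Atp2a2 and 0.712 for Atp1b1.

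Promoter sequences are shown for the Nr4a genes and Ppargc1a, which are known to respond to cAMP through CREB, because Nr4a3 and Ppargc1a were high in the same CT-WD libraries. RefSeq promoters of build GRCm38.p6 matched 8 of the 9 genes in 12 windows, and Ppargc1b was not matched. The 250 bases before each start were searched on both strands for CGTCA, the core of the cAMP response element (TGACG on the other strand), the full element TGACGTCA, the Nr4a element AAAGGTCA, the estrogen-related receptor element TNAAGGTCA and the Myc E-box CACGTG. These letters were chosen after the sequences had been read. TGACGTCA contains CGTCA on both strands, and TNAAGGTCA can contain AAAGGTCA. Of 32851 promoter windows of that length, 17.8% held CGTCA at least 1 time and 0.137% at least 4 times, 1.55% held TGACGTCA, 1.34% AAAGGTCA, 1.14% TNAAGGTCA and 6.02% CACGTG. The core CGTCA on either strand was present 4 times in the window of each Nr4a gene, 1 time in that of Ppargc1a, 2 times in 1 of the 2 windows of Esrrb, and in none of Perm1, Esrra and Esrrg. The other 4 motifs were in none of the 12 windows.

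The sequences run 5′ to 3′ on the strand of the gene, and capitals mark CGTCA or TGACG. They are Nr4a1 at chr15:101266596-101266845 (plus strand, before a start inside the annotated gene), Nr4a2 at chr2:57124004-57124253 (minus strand), Nr4a3 at chr4:48045055-48045152 (plus strand, 98 bases with 3 of its 4 matches, without 152 bases that are annotated as exon) and Ppargc1a at chr5:51567727-51567975 (minus strand, without 1 exon base). The matches are a description of letters, and binding was not measured.
Nr4a1: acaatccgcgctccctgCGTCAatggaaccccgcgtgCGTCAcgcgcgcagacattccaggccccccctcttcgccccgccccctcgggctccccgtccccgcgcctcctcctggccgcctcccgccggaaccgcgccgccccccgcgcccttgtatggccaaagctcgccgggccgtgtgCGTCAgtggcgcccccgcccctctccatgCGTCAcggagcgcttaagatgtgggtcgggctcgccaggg
Nr4a2: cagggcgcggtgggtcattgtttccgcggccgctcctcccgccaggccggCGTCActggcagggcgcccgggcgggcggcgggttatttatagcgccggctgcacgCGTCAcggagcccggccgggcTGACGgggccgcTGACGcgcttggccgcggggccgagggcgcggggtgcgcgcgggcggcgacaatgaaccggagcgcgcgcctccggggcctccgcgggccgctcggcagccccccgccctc
Nr4a3: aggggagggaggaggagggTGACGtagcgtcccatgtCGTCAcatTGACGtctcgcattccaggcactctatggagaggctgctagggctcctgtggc
Ppargc1a: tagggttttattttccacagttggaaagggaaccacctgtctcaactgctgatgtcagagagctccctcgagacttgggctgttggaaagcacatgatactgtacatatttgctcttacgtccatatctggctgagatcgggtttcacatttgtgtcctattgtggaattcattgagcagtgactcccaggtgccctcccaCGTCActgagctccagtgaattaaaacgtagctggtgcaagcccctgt

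Genes around the network are given by list, as counts of called genes beside the median log2 fold change, and the median over all genes tested was 0.0071 for the diets in CT, 0.0056 for the genotypes on western diet, -0.00070 for the genotypes on control diet and -0.0012 for genotype averaged over diets. Over all genes the share called by edgeR was 0% for the diets in CT, 0.00647% for the diets in EC-Myc OE, 0.563% for the genotypes on western diet, 1.91% on control diet and 3.64% for genotype averaged. By DESeq2 the genes called among 15458 were 31 for the diets in CT, 1 for the diets in EC-Myc OE, 309 and 509 for the genotypes on western and control diet, 3 for the interaction, 15 for diet averaged and 728 for genotype averaged. By limma on log2(FPKM + 1), the scale of all limma calls on lists, those among 18258 were 0, 1, 8, 107, 0, 1 and 183 in the same order. At the unadjusted level the shares of all genes were 3.05%, 1.37%, 5.74%, 7.12%, 2.7%, 1.6% and 7.18% in that order. The lists share genes, among them Pdk4, Foxo1 and Nr1d1, so a called gene can be counted again in another list. Of 23 genes of cAMP and calcium input, which act upstream of Nr4a and Ppargc1a transcription, 0 were called by edgeR in any of the 7 comparisons. By DESeq2 1 was called in CT-WD against CT-CTD, in OE-CTD against CT-CTD and for diet averaged over genotypes, and limma called 0. At the unadjusted level 2 passed in CT-WD against CT-CTD, Sik1, a kinase gene induced by cAMP, at 1.36 (SE 0.249, adjusted p = 0.277) and Rcan1. Sik1 was at 0.91 (SE 0.235, adjusted p = 0.0528) in OE-CTD against CT-CTD. The median of this list was -0.05 in CT-WD against CT-CTD and -0.06 in OE-CTD against CT-CTD.

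Of 23 partners and regulators of PGC-1 coactivators and estrogen-related receptors, 1 fell in OE-WD against CT-WD, Lpin1, a coregulator of Ppargc1a, at -0.71 (SE 0.149, adjusted p = 0.0407), with a list median of -0.03, while DESeq2 called 2 and limma 0. For genotype averaged over diets 1 fell, Foxo1 at -0.63 (SE 0.179, adjusted p = 0.0408), with a median of -0.06, 1 called by DESeq2 and 0 by limma. In CT-WD against CT-CTD and in OE-CTD against CT-CTD edgeR, DESeq2 and limma called 0, and 1 passed the unadjusted level in each, Foxo1 and Nrip1. Of 34 targets of PGC-1 coactivators and estrogen-related receptors in muscle, 2 fell in OE-WD against CT-WD, Ucp3, a mitochondrial uncoupling protein, at -1.21 (SE 0.211, adjusted p = 0.0276) and Pdk4, an inhibitor of glucose oxidation, at -1.08 (SE 0.229, adjusted p = 0.0430). The list median there was -0.074, with 12 of 34 genes above 0, and DESeq2 called 2 and limma 0. In OE-CTD against CT-CTD 1 fell, Ucp3 at -1.38 (SE 0.211, adjusted p = 0.00575), with a list median of 0.09, 27 of 34 genes above 0, 2 called by DESeq2 and 1 by limma. For genotype averaged over diets 2 fell, Ucp3 at -1.30 (SE 0.149, adjusted p = 0.000374) and Pdk4 at -0.95 (SE 0.162, adjusted p = 0.00317), with a median of 0.01, and DESeq2 and limma each called 2.

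Of 13 glucose-use genes described as responsive to Nr4a receptors in muscle, 1 fell in OE-WD against CT-WD, Fbp2, a muscle fructose bisphosphatase, at -0.78 (SE 0.135, adjusted p = 0.0276), with a list median of -0.14, 1 called by DESeq2 and 0 by limma. On control diet 0 were called in OE-CTD against CT-CTD by edgeR, DESeq2 or limma and 0 at the unadjusted level, with a median of -0.05. Of 20 immediate-early genes, which are induced by the same inputs as the Nr4a genes, 0 were called in CT-WD against CT-CTD by edgeR, 1 by DESeq2 and 0 by limma. At the unadjusted level 11 were higher and 1 lower (all genes 3.05%), and the median was 0.81. There were 3 that rose in OE-CTD against CT-CTD, Egr3 at 3.11 (SE 0.593, adjusted p = 0.0137), Junb at 1.56 (SE 0.260, adjusted p = 0.00704) and Ier2 at 1.22 (SE 0.291, adjusted p = 0.0386), with a median of 0.63, and DESeq2 called 6 and limma 2. The comparisons CT-WD against CT-CTD and OE-CTD against CT-CTD share the CT-CTD libraries. In OE-WD against CT-WD edgeR and limma called 0 immediate-early genes and DESeq2 1, with a median of -0.14. For genotype averaged over diets 3 rose, Egr3, Junb and Egr2, with a median of 0.27, 4 called by DESeq2 and 2 by limma. In the interaction 0 were called by edgeR, DESeq2 and limma, 10 of 20 were lower at the unadjusted level (all genes 2.7%), and the median was -1.02.

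Of 19 clock genes, 5 rose and 1 fell in OE-WD against CT-WD (median 0.24, 7 called by DESeq2 and 2 by limma) and 3 rose in OE-CTD against CT-CTD (median 0.05, 4 by DESeq2 and 3 by limma), among them Nr1d1 at 1.37 (SE 0.206, adjusted p = 0.00575). For genotype averaged over diets 4 clock genes rose and 1 fell (median 0.17, 5 by DESeq2 and 4 by limma), and between the diets edgeR and limma called 0 and DESeq2 2 in CT, where 2 were higher and 1 lower at the unadjusted level, and 0 in EC-Myc OE. Of 18 tested glucocorticoid-responsive genes, 4 fell in OE-WD against CT-WD (median -0.74, 6 called by DESeq2 and 0 by limma), 3 fell in OE-CTD against CT-CTD (median -0.28, 4 by DESeq2 and 1 by limma) and 7 fell for genotype averaged over diets (median -0.57, 7 by DESeq2 and 6 by limma), among them Fbxo32 at -1.06 (SE 0.170, adjusted p = 0.00242). Between the diets in CT edgeR and limma called 0 of these 18 genes and DESeq2 3, 8 were higher at the unadjusted level (all genes 3.05%), 18 of 18 were above 0, and the median was 0.54. Between the diets in EC-Myc OE 1 rose (median 0.17, 17 of 18 above 0), as did 1 for diet averaged over genotypes (median 0.40, 18 of 18 above 0). Of 26 other orphan and metabolic nuclear receptors, 1 rose in both comparisons of genotypes, Nr1d1, with medians of 0.09 on western diet (1 called by DESeq2 and 1 by limma) and -0.01 on control diet (3 by DESeq2 and 1 by limma). Slow and oxidative fibre genes (11 tested) had 0 called by edgeR, DESeq2 and limma and 0 at the unadjusted level in every comparison. Their median was 0.27 in OE-CTD against CT-CTD (11 of 11 above 0), -0.024 in OE-WD against CT-WD (4 of 11), 0.061 in CT-WD against CT-CTD (7 of 11), -0.18 in OE-WD against OE-CTD (1 of 11) and 0.15 for genotype averaged over diets (10 of 11), and Atp2a2 was at 0.41 (SE 0.0800, adjusted p = 0.00631) for genotype averaged over diets, short of the fold limit. Of 11 fast fibre genes 0 were called by edgeR, DESeq2 and limma in every comparison, and the medians lay between -0.09 and 0.07. Of these 11 genes, 1 passed the unadjusted level, Tnnc2 in OE-CTD against CT-CTD at -1.11, with a mean of only 0.684 CPM.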

How the data were processed

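RNA-seq of 14 skeletal muscle libraries was analysed, grouped by the labels. The authors deposited counts per gene, not normalized, and FPKM values, which scale counts by gene length and library total. The submitters' processing notes name HISAT2 2.0.5, featureCounts 1.5.0-p3 and build mm10, and strand and annotation settings are not given in the sources used here. Of 54409 identifiers shared with GENCODE M21 on GRCm38, 98.3% had the same position.

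The test was that of edgeR 4.0.16, run in R 4.3.3 on the counts (TMM, filterByExpr, quasi-likelihood test, a mean per group, all libraries), with Benjamini-Hochberg adjustment over 15458 genes in each of 7 comparisons. Log2 CPM used a prior count of 2. Alternatives were DESeq2 1.42.0, RLE size factors, no filter, limma 3.58.1 on log2(FPKM + 1) or log2(FPKM + 0.1) with at least 0.1 FPKM in 3 libraries, only the groups compared, a replicate block, and leaving out each library. Correlations used 100000 permutations, 2-sided, in Python 3.11.15 with numpy 2.4.6, scipy 1.17.1 and pandas 2.3.3, and figures matplotlib 3.10.9. The pipeline was tested on simulated data, with pass criteria that were reset after the first ones had failed.

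Named genes were the 9 genes, for each the 3 tested genes with the highest correlation (at least 1 CPM, no Gm or Rik names), mouse Myc, and for each list and comparison up to 4 called genes or, with fewer than 2 called, the genes with the highest and lowest fold change, of which some are printed. For Esrrb, 1 of its 3 is not reported here. The genes and lists were chosen with earlier results of these data known. Lists were cAMP and calcium input, partners and regulators, targets, glucose-use, immediate-early, clock, glucocorticoid-responsive, other nuclear receptor, slow fibre and fast fibre genes. Markers were of muscle fibre, endothelium, heart, tendon and brown adipocyte. Further marker lists were summed without a test, with medians over libraries of 281 CPM for adipocyte, 57.2 for macrophage, 230.2 for blood, 159 for Schwann cell, 18.2 for epidermis and 399.9 for smooth muscle and pericyte genes.

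Replicate numbers were checked as a pairing by correlating deviations from group means over genes. Between CT-WD and CT-CTD r was 0.385, 0.123 and 0.203, all over 0.1, so the numbers were taken to pair these libraries. Libraries of different number were not correlated across the diets, so whether another matching would do as well was not tested. The pairing was taken from the data, since the labels name no shared litter or batch. The sample descriptions hold numbers whose meaning is not given. OE-CTD 1 to 3 share 1, OE-WD 1 to 4 share another, and the CT numbers form 2 runs, replicate 1 of both diets and replicates 2 and 3 of both. Each shared number is in 1 group only. No number is in both genotypes as labelled, so the part of the numbers in a difference of genotypes cannot be told apart. In OE-WD the part of the number and that of the group cannot be told apart. OE-CTD 4 held a number of its own, 1179, so OE-CTD was not wholly of its shared number. Within groups, counts of any 2 libraries differed by more than sampling noise (chi-square at least 8.02 per degree of freedom), so none were 1 library deposited 2 times. Whether each library came from its own mouse is not given in the labels and was not tested, so p-values measure the spread between these libraries. OE-CTD 4 and OE-WD 4 stood apart from their groups, at 39.0 to 45.1, against 8.02 to 15.8 for other EC-Myc OE pairs and 17.7 to 53.1 for CT pairs.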

Additional observations from a re-analysis of the deposited data

Results flagged for a closer look

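The level of Esrrb in OE-WD 1, 22.2 CPM, lay apart from the other 3 OE-WD libraries, which were between 23.1 and 23.2 CPM, by more than Dixon's limit for a group of 4. Of 18 groups of 4 libraries tested, 1 passed that limit, and chance passes about 1 in 20 groups. The library remained above every CT library.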

How the results depend on the processing

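Of 882 log2 folds of the 9 genes recomputed without 1 library, 828 kept their direction and their side of the threshold, 5 lost a call, 5 gained one and 44 changed sign. Of 414 under the other settings, 4 lost a call, 14 gained one and 4 changed sign, and the others kept both. The values that changed sign were at most 0.43 in size, and 0 of the 48 had an adjusted p under 0.05. With RLE size factors the same number of the 9 genes was called in every comparison.

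Without the filter on low counts, with 27899 genes tested, 2 of the 9 genes were called between CT-WD and CT-CTD, 4 between OE-CTD and CT-CTD, 1 in the interaction, 2 for diet and 2 for genotype averaged. Over all genes that fit called 88, 570, 29, 47 and 760 in the same order. DESeq2 called 2 on control diet and 2 for genotype averaged, among 509 and 728 of 15458 genes. With only the groups compared, 0 were called on western diet and 2 on control diet, among 4 of 14860 and 437 of 14758 genes. With limma 0 were called on western diet at either pseudocount and, at log2(FPKM + 1), 0 for genotype averaged, where Esrrb was 0.55. Nr4a2 between the diets in CT was -0.058 at log2(FPKM + 0.1), and Esrra between the diets in EC-Myc OE was 0.0011 and 0.0012 with limma. The cause was not tested.

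With replicate numbers as a block, 2 of the 9 genes were called between OE-CTD and CT-CTD (Nr4a1 added, adjusted p = 0.0127 in edgeR) and 2 for genotype averaged (Nr4a2 added, adjusted p = 0.0376), among 388 and 687 of 15458 genes, Nr4a2 between the diets in CT was -0.00086, and the block changed no other call of the 9 genes. Outside the diets in CT the replicate numbers were not taken to pair libraries. Same-numbered libraries correlated at 0.0711, 0.138, 0.142 and 0.338 between the diets in EC-Myc OE, -0.230, -0.158 and -0.0647 between the genotypes on western diet and 0.0465, -0.113 and -0.122 on control diet.

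Correlations within groups were 0.652 for Nr4a3 with Ppargc1a and -0.678 for Ppargc1b with Esrra, and neither passed (adjusted p = 0.136 for both). Without the 2 libraries farthest from the median they were 0.604 and -0.350, and Ppargc1a with Ppargc1b was 0.134 and Perm1 with Esrra 0.337, both below 0 over all libraries. The cause was not tested.

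Leaving out each library in turn, 0 to 1 of the 9 genes were called between the diets in CT, 0 to 2 between the genotypes on western diet, 1 to 2 on control diet, 1 to 2 for genotype averaged and 0 elsewhere. Log2 folds that changed sign in at least 1 of these fits had the following ranges. Between the diets in CT these were Esrrb from -0.19 to 0.022, Perm1 from -0.054 to 0.24 and Nr4a2 from -0.43 to 0.46. Between the diets in EC-Myc OE these were Nr4a3 from -0.077 to 0.15, Esrra from -0.047 to 0.037, Nr4a1 from -0.32 to 0.043, Nr4a2 from -0.77 to 0.090, Esrrg from -0.064 to 0.073, Ppargc1a from -0.016 to 0.44 and Perm1 from -0.098 to 0.011. Between the genotypes on western diet these were Perm1 from -0.024 to 0.17 and Nr4a1 from -0.29 to 0.076. Between the genotypes on control diet these were Esrra from -0.062 to 0.079 and Esrrg from -0.022 to 0.41. In the interaction these were Esrrg from -0.012 to 0.42, Ppargc1b from -0.24 to 0.60 and Esrrb from -0.18 to 0.037. For diet averaged over genotypes these were Perm1 from -0.057 to 0.089 and Nr4a2 from -0.47 to 0.099. For genotype averaged over diets this was Ppargc1a from -0.053 to 0.21.

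Calls over all genes moved more. Between OE-WD and CT-WD the 87 became 309 with DESeq2, 401 without the filter, 8 and 5 with limma, 4 with only the groups compared and 4 to 905 without 1 library. Between OE-CTD and CT-CTD the 295 became 509, 570, 107 and 162, and 437, and 64 to 440. The 0 between the diets in CT became 31 with DESeq2 and 88 without the filter, and 0 to 41 without 1 library. The 562 for genotype averaged became 728 with DESeq2, 760 without the filter, 183 at log2(FPKM + 1), 447 at log2(FPKM + 0.1), 687 with the block and 335 to 1111 without 1 library. In the interaction the 0 became 3 with DESeq2 and 29 without the filter, and the 1 for diet averaged became 15 and 47, and 1 to 23 without 1 library. Between the diets in EC-Myc OE the 1 became 5 without the filter and 0 to 2 without 1 library.

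Counts of Nr4a2, from 22 per library, and its spread over libraries, with a coefficient of variation of up to 70.5% within a group in CPM, limit its precision. Group sizes of 3 and 4, the unlabelled muscle and the mismatch between described and labelled group sizes limit all comparisons. The numbers in the sample descriptions, none of them in both genotypes, further limit the comparisons of genotypes.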
